A study of Homo sapiens with 4 samples.

Results

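A set of 10 genes that lie at loci associated with systemic lupus erythematosus were followed in Jurkat cells, an established human T cell leukemia line, with and without hairpins against the transcript SLEAR. The genes were chosen by name as TYK2, STAT4, TNIP1, TNFAIP3, TREX1, ATG5, IKZF1, JAZF1, PXK and PHRF1. Of these 10 genes, 9 had a row in the deposited table, with 11 rows in all out of 16328. IKZF1 had 3 rows and the others 1 each. For ATG5 a search by symbol, synonym and RefSeq accession found 0 rows, and the gene is not analysed here.

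The series holds 4 libraries of polyadenylated RNA read at the 3′ ends of transcripts, 1 labelled Control and 3 labelled SLEAR shRNA, numbered 1 to 3. Whether these numbers mean different hairpins is not stated in the labels. Hairpins were carried by a pGreenPuro lentivector, per the labels, and the design text calls the Control a shRNA as well. The labels name neither the Control's hairpin nor separate cultures, so the spread behind the p-values is that of these libraries alone and may be technical. All 4 libraries come from 1 leukemic line, grown without a stated stimulus.

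Systemic lupus erythematosus is an autoimmune disease in which type I interferon, nucleic acids from dying cells and overactive lymphocytes are recurrent themes. Several of the genes near its risk variants act at those points. TYK2 and STAT4 carry signals from cytokine receptors, TNFAIP3 and TNIP1 restrain NF-kB, TREX1 removes DNA from the cytosol, ATG5 builds autophagosomes, and IKZF1 steers lymphocyte development. A gene near a risk variant need not be the gene through which the variant acts.

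Values are RPM, read numbers that the authors scaled to library size. Where 3 values follow that of Control, they belong to SLEAR shRNA libraries 1, 2 and 3 in that order. The step between low values gave an estimated depth of 8384889 reads for Control and of 7048620, 7524253 and 4814165 reads for the others. SLEAR shRNA-3 stood apart: 6941 of 16328 rows were at 0 there, against 2314 to 2984 in the other 3 libraries. Of 12 T cell markers, 10 were at 1 RPM or more in every library, among them CD3D, CD3E and LCK. The exceptions were CD3G and CD28. CD3G had only 0.24 RPM in Control and 0 in every SLEAR shRNA library. CD28 had 7.87 RPM in Control and less in each SLEAR shRNA library, namely 1.28, 2.92 and 0 RPM. The sum of the 12 lay between 4321 and 4755 RPM, with CD3D the largest part in every library. The summed myeloid, erythroid and fibroblast markers reached at most 3.06 RPM. Markers of adherent kidney or epithelial cells, 3 of 7 with a row, summed to 13.2 RPM in Control and to 25.8, 17.1 and 38.2 RPM, mostly CDH2, while KRT18 was at 0. B cell markers, 3 of 5 with a row, summed to 12.05 RPM and to 21.99, 19.7 and 23.1 RPM. Both sums were higher in every SLEAR shRNA library, and their part in the results was not tested. No row was named SLEAR, so the extent of the knockdown is not analysed here.

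Measurability was judged against 3 reads, the level that a count of 0 still allows. This is worth 0.358 RPM in the Control library against 0.426, 0.399 and 0.623 RPM with the SLEAR hairpins. TYK2, TNIP1, TREX1, PHRF1, JAZF1, PXK and all 3 rows of IKZF1 lay above it in every library, which makes 9 measurable rows from 7 genes. STAT4 lay above it in 2 libraries and TNFAIP3 in none. For every member the values were whole numbers of reads, and the intervals below are exact 95% Poisson intervals on those reads, which cover counting error only.

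**Figure D1:**
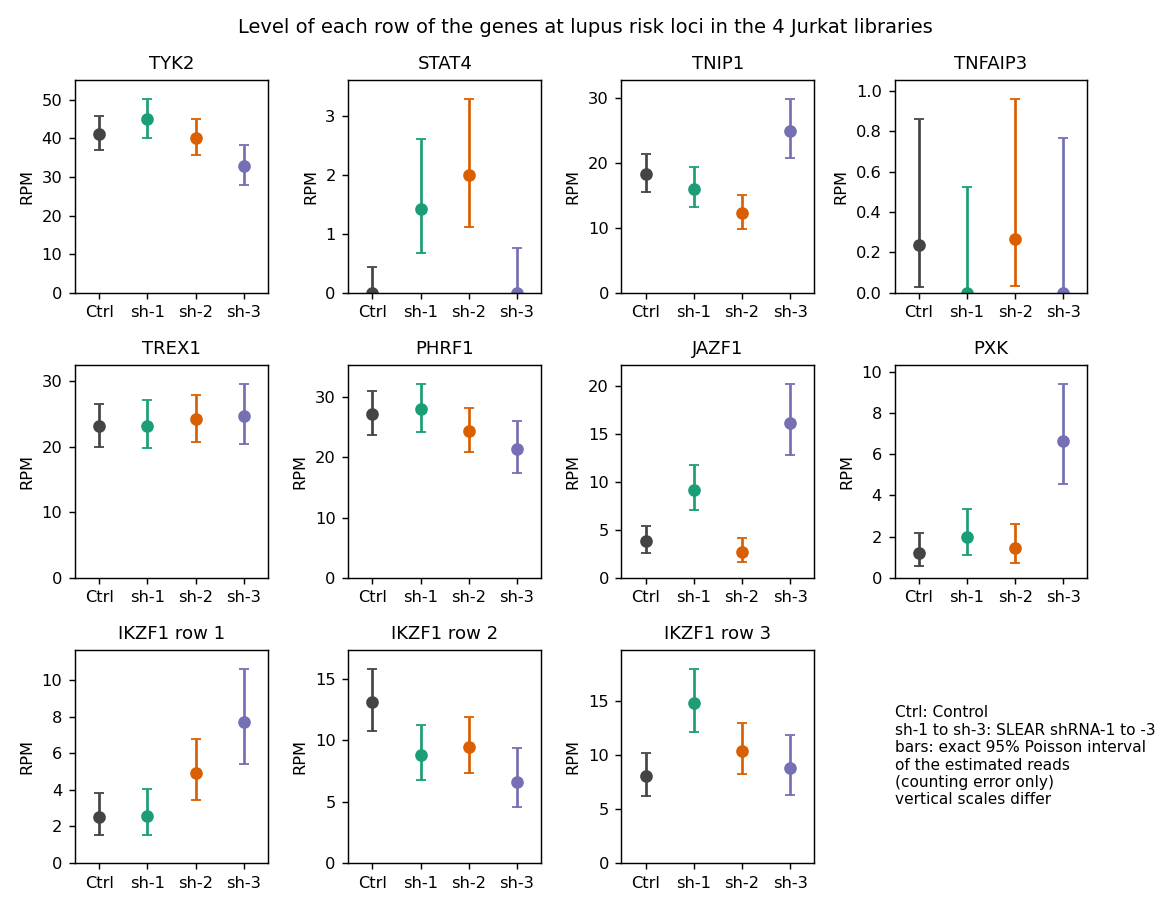
RPM (vertical axes, scales differ) of each of the 11 rows in Control and in the SLEAR shRNA libraries 1 to 3, with points for the libraries and bars for the exact 95% Poisson interval of the estimated reads. TREX1 sits between 23.1 and 24.7 RPM in all 4 libraries, whereas JAZF1 and PXK are highest in SLEAR shRNA-3 and TNFAIP3 stays below 0.3 RPM.

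TYK2 was the member read most deeply, and its level in the SLEAR shRNA libraries lay on both sides of Control. TYK2 is a Janus kinase bound to the receptors for type I interferon, IL-12 and IL-23. It was at 41.3 RPM in the Control library (346 reads) against 45.0, 40.1 and 32.8 RPM. SLEAR shRNA-3 was the lowest, and its interval of 27.9 to 38.4 RPM overlapped that of Control, 37.0 to 45.9 RPM. The mean of the SLEAR shRNA libraries was 39.3 ± 6.12 RPM (SD, n = 3). The log2 difference from Control was -0.080 ± 0.31 (SE, limma-trend adjusted p = 0.993), with a 95% interval of 0.535 to 1.67-fold. Without SLEAR shRNA-3 it was 0.041 ± 0.17 (SE), so the sign turned and the value stayed near 0.

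STAT4, the transcription factor that IL-12 and interferon receptors switch on, was barely expressed. It was at 0 RPM in Control, at 1.42 RPM (10 reads) in SLEAR shRNA-1, at 1.99 RPM (15 reads) in SLEAR shRNA-2 and at 0 RPM in SLEAR shRNA-3. SLEAR shRNA-1 and SLEAR shRNA-2 were thus above both Control and SLEAR shRNA-3. Against the 3 reads that a 0 allows in Control, taken for the library and with the other values as measured, SLEAR shRNA-1 was at least 3.97-fold higher and SLEAR shRNA-2 at least 5.57-fold higher. The reads themselves carry counting error, with intervals of 0.680 to 2.61 RPM in SLEAR shRNA-1 and 1.12 to 3.29 RPM in SLEAR shRNA-2. The interval of Control reached 0.440 RPM. That of SLEAR shRNA-3 reached 0.766 RPM and so overlapped that of SLEAR shRNA-1. Of rows whose mean over SLEAR shRNA-1 and SLEAR shRNA-2 was 1 to 2 RPM, Control had 9.50% at 0 and SLEAR shRNA-3 had 62.1%, so the 0 of SLEAR shRNA-3 is a common value at this level. STAT4 did not pass (log2 difference 0.95 ± 0.81 SE, adjusted p = 0.993), and without SLEAR shRNA-3 it did not pass either (1.43 ± 0.44 SE, adjusted p = 0.362). Rows were tested if they were at 1 RPM or more in at least 1 library. STAT4 met this only in SLEAR shRNA-1 and SLEAR shRNA-2, where it was high, so its p is not read as support for a difference. At so few reads the size depends on the scale: the log2 difference was 2.77 with 0.1 RPM added, 0.28 with 5 RPM added and 3.60 by limma-voom.

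The other genes of this pathway, the Janus kinases, STAT proteins, cytokine receptors and their inhibitors, gave 19 tested rows, of which 0 passed. JAK1, the kinase that works beside TYK2 at the interferon receptor, was at 3.34 RPM in the Control library against 3.26, 3.99 and 3.53 RPM. Among the rows with the smallest p were JAK2, another Janus kinase, and IL2RG, the common cytokine receptor chain, with log2 differences of -0.78 and -0.31. JAK2 was low, at 1.07 RPM in the Control library against 0.142, 0.532 and 0 RPM. It lay under the level of 3 reads in SLEAR shRNA-1 and SLEAR shRNA-3. JAK2 was at 1 RPM or more in Control alone, so it entered the test only through the library where it was high. IL2RG was at 1472 RPM against 1273, 1204 and 1102 RPM.

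TNIP1 and TNFAIP3 encode partners that shut off NF-kB. TNFAIP3, known as A20, edits ubiquitin chains on signalling proteins, and TNIP1, known as ABIN1, binds ubiquitin and A20. Both genes are textbook targets of NF-kB itself, which closes a feedback loop. The sequences below are shown because this pair shares that input and yet differs in whether it can be read in Jurkat. In RefSeq promoters (GRCh38.p14, windows from before a start to just after it), 9 of the 10 genes were found with 14 promoters, and JAZF1 was not matched. The NF-kB consensus, searched on both strands, was in 1 of the TNIP1 promoters and in the TNFAIP3 promoter, and 11.3% of 35116 promoters hold it. Each 30-base window runs 5′ to 3′ on the gene's strand with the match in capitals, and the TNFAIP3 windows overlap.
TNIP1, chr5:151081057-151081086, minus strand, match from 42 bases before the start: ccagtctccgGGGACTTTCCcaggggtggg
TNFAIP3 first match, chr6:137867182-137867211, plus strand, from 67 bases before the start: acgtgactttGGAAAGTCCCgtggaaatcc
TNFAIP3 second match, chr6:137867194-137867223, plus strand, from 55 bases before the start: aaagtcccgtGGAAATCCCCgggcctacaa

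Read on the strand of the consensus, the TNIP1 match and the first TNFAIP3 match are the same 10 letters, GGGACTTTCC, which 0.191% of all promoters hold. The other TNFAIP3 match lies on the same strand as the first and reads GGGGATTTCC, held by 0.111% of promoters. A match is a description of letters and not a binding site.

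TNFAIP3 could not be measured. It was at 0.239 RPM (2 reads) in Control, 0 RPM in SLEAR shRNA-1, 0.266 RPM (2 reads) in SLEAR shRNA-2 and 0 RPM in SLEAR shRNA-3. No fold is given, because every library was under the level that 3 reads represent, and the row was not tested.

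TNIP1, in contrast, was readily measured. It was at 18.2 RPM in the Control library (153 reads) against 16.0, 12.2 and 24.9 RPM. SLEAR shRNA-1 and SLEAR shRNA-2 were below Control and SLEAR shRNA-3 above it. By counting error alone only the interval of SLEAR shRNA-2, 9.86 to 15.0 RPM, lay apart from that of Control, 15.5 to 21.4 RPM. The mean was 17.7 ± 6.52 RPM (SD, n = 3) and the log2 difference -0.096 ± 0.54 (SE, limma-trend adjusted p = 0.994). Without SLEAR shRNA-3 the difference was -0.36 ± 0.29 (SE, adjusted p = 0.563).

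Around this pair, 28 rows of A20 partners, ubiquitin ligases and NF-kB subunits were tested and 0 passed. NFKBIA, the inhibitor IkB-alpha and another NF-kB target, was at 96.4 RPM in the Control library against 115, 111 and 73.7 RPM, so SLEAR shRNA-3 again lay on the other side of Control. TAX1BP1, an adaptor of A20, was at 14.6 RPM against 5.25, 7.84 and 24.7 RPM. The rows with the smallest p were CHUK, an IkB kinase, NFKB2 and RELB. CHUK was at 98.3 RPM in the Control library against 62.4, 68.7 and 70.2 RPM. NFKB2 was at 8.62 RPM against 16.9, 17.4 and 24.5 RPM, and RELB, its dimer partner, at 0.954 RPM against 2.13, 2.66 and 9.35 RPM. RELB was at 1 RPM or more only in the SLEAR shRNA libraries, so it entered the test only through them.

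TREX1 was the steadiest member across the 4 libraries by its spread on the log2 scale. It encodes the main DNA exonuclease of the cytosol, whose loss lets self DNA trigger interferon. TREX1 was at 23.1 RPM in the Control library (194 reads) against 23.3, 24.2 and 24.7 RPM. All SLEAR shRNA libraries lay above Control, by less than counting error. The mean was 24.1 ± 0.735 RPM (SD, n = 3). The log2 difference was 0.054 ± 0.32 (SE, limma-trend adjusted p = 0.994), and its 95% interval of 0.571 to 1.89-fold leaves room for changes inside it. In GENCODE 29, TREX1 and ATRIP, a checkpoint protein, lie on the same strand and end at the same base, so reads at that end can come from either gene. The separate ATRIP row was at 5.96 RPM in the Control library against 6.24, 9.97 and 2.91 RPM.

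Genes of nucleic acid clearance and sensing around TREX1 gave 14 tested rows, of which 0 passed. DNASE2, the lysosomal nuclease, was at 85.3 RPM in the Control library against 127, 103 and 138 RPM. IFIH1, a sensor of double-stranded RNA that is itself near a lupus risk variant, was at 7.75 RPM against 3.55, 3.06 and 0.831 RPM. SET, a regulator of the granzyme A-activated nuclease complex that holds TREX1, was at 387 RPM against 325, 315 and 246 RPM.

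PHRF1, a PHD and RING finger ubiquitin ligase whose gene neighbours IRF7, was measured well and lay on both sides of Control. It was at 27.2 RPM in the Control library (228 reads) against 27.9, 24.3 and 21.4 RPM. SLEAR shRNA-3 was the lowest, with an interval of 17.5 to 25.9 RPM that overlapped that of Control, 23.8 to 31.0 RPM. The mean was 24.6 ± 3.28 RPM (SD, n = 3). The log2 difference was -0.15 ± 0.34 (SE, limma-trend adjusted p = 0.993), with a 95% interval of 0.477 to 1.70-fold.

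JAZF1 had the widest spread of the tested members on the log2(RPM + 1) scale, while with 0.1 RPM added in place of 1 and by limma-voom the SE of STAT4 and PXK was larger. JAZF1 is a zinc finger protein that joins the NuA4 histone acetyltransferase complex. It was at 3.82 RPM in Control (32 reads), 9.22 RPM in SLEAR shRNA-1, 2.66 RPM in SLEAR shRNA-2 and 16.2 RPM in SLEAR shRNA-3. SLEAR shRNA-1 and SLEAR shRNA-3 were above Control beyond counting error, and SLEAR shRNA-2 was below Control within it. The mean was 9.36 ± 6.77 RPM (SD, n = 3) and the log2 difference 0.84 ± 1.08 (SE, limma-trend adjusted p = 0.993). Without SLEAR shRNA-3 the difference was 0.34 ± 0.73 (SE, adjusted p = 0.833). In GENCODE 29 the gene overlaps TAX1BP1 and JAZF1-AS1 on the other strand. The sources used here do not give the strand setting of the counting, so their reads may not be separable. The same holds for TNFAIP3, PXK, STAT4 and IKZF1, which also overlap a gene on the other strand.

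The subunits of NuA4 gave 19 tested rows with a median log2 difference of -0.39, against -0.11 over all tested rows, and 0 passed. By library the median was -0.30, -0.18 and -0.85, lowest in SLEAR shRNA-3, and over all tested rows it was -0.022, -0.037 and -0.23. EPC1 was at 6.32 RPM in the Control library against 2.84, 2.13 and 0 RPM. MRGBP was at 236 RPM against 317, 289 and 406 RPM. A row of BRD8 was at 2.15 RPM against 1.14, 0.266 and 0 RPM. Of rows averaging 2 to 4 RPM over SLEAR shRNA-1 and SLEAR shRNA-2, as EPC1 did, 45.3% were at 0 in SLEAR shRNA-3.

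PXK, a kinase-like protein with a PX domain that affects receptor trafficking in B cells, was low in 3 libraries and higher in SLEAR shRNA-3. It was at 1.19 RPM in Control (10 reads), 1.99 RPM in SLEAR shRNA-1, 1.46 RPM in SLEAR shRNA-2 and 6.65 RPM (32 reads) in SLEAR shRNA-3. The interval of SLEAR shRNA-3, 4.55 to 9.38 RPM, lay apart from that of Control, 0.572 to 2.19 RPM, and the other libraries overlapped Control. The mean was 3.37 ± 2.85 RPM (SD, n = 3) and the log2 difference 0.81 ± 0.96 (SE, limma-trend adjusted p = 0.993). Without SLEAR shRNA-3 it was 0.31 ± 0.43 (SE, adjusted p = 0.740).

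IKZF1 kept nearly the same summed level in the 4 libraries, while the share of its reads in row 2 was lower in each SLEAR shRNA library than in Control. IKZF1 encodes Ikaros, a zinc finger transcription factor of lymphoid cells that recruits the NuRD chromatin complex and is lost or cut short in some acute leukemias. Ikaros binds DNA through fingers near its start and pairs with other Ikaros family proteins through fingers at its end. The coding sequence that a transcript holds thus decides which fingers a protein can have. The 3 rows group different RefSeq transcripts. Through their RefSeq names, the transcripts of rows 1 and 2 were matched to GENCODE 29 models that end early. The row 1 model ends 35657 bases before the farthest IKZF1 end of these models and codes for 174 residues. The row 2 models end 35500 and 35402 bases before it and code for 77 residues. The models of row 3 end within 4225 bases of it and code for 294 to 519 residues.

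The coding sequences show where the early-ending models part from the long ones. The models of rows 1 and 2 share their first 160 coding bases with the longest model of row 3 and then differ. The lines give the 15 shared bases before that point in lower case and the next 15 coding bases in capitals, 5′ to 3′, from GENCODE 29 transcripts (GRCh38). The letters are the same in the row 1 model and in both row 2 models.
IKZF1 early-ending models, rows 1 and 2: gtgacagagtcgtggTTACATATGGGGCTG
IKZF1 longest model, row 3: gtgacagagtcgtggCCAGTAATGTTAAAG

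Row 2, with early-ending transcripts, was the leading row of IKZF1 in Control and lower in every SLEAR shRNA library. It was at 13.1 RPM in the Control library (110 reads) against 8.80, 9.44 and 6.65 RPM. By counting error alone, SLEAR shRNA-3 lay apart from Control and the others overlapped it. The mean was 8.29 ± 1.46 RPM (SD, n = 3) and the log2 difference -0.62 ± 0.57 (SE, limma-trend adjusted p = 0.993). Without SLEAR shRNA-3 the difference was -0.48 ± 0.29 (SE, adjusted p = 0.470).

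Row 3, with the long transcripts, was at 7.99 RPM in the Control library (67 reads) against 14.8, 10.4 and 8.72 RPM. All SLEAR shRNA libraries were above Control, SLEAR shRNA-1 beyond counting error. The log2 difference was 0.42 ± 0.58 (SE, limma-trend adjusted p = 0.993) and 0.23 without SLEAR shRNA-1. Row 1 was at 2.50 RPM in the Control library (21 reads) against 2.55, 4.92 and 7.69 RPM, with SLEAR shRNA-1 next to Control and SLEAR shRNA-3 the highest. Its log2 difference was 0.70 ± 0.86 (SE, adjusted p = 0.993) and 0.39 ± 0.50 (SE) without SLEAR shRNA-3.

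Summed over its rows, IKZF1 was at 23.6 RPM in the Control library against 26.1, 24.7 and 23.1 RPM. The mean was 24.6 ± 1.53 RPM (SD, n = 3). Its difference from Control on the log2 scale was 0.056 ± 0.33 (SE, limma-trend adjusted p = 0.994). SLEAR shRNA-1 and SLEAR shRNA-2 were above Control and SLEAR shRNA-3 just below it.

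Row 2 held 55.6% of the gene's 198 reads in Control, with an exact binomial 95% interval of 48.3 to 62.6%. It held 33.7% of 184 reads in SLEAR shRNA-1 (26.9 to 41.0%), 38.2% of 186 in SLEAR shRNA-2 (31.2 to 45.6%) and 28.8% of 111 in SLEAR shRNA-3 (20.6 to 38.2%). None of these 3 intervals, which cover counting error only, overlapped that of Control. How often this holds among other genes of several rows was not counted, so it is not read as particular to IKZF1. Row 3 held 33.8% in Control and 56.5%, 41.9% and 37.8% with the SLEAR hairpins, and row 1 held 10.6% against 9.78%, 19.9% and 33.3%. The share of row 3 was highest in SLEAR shRNA-1, that of row 1 was highest in SLEAR shRNA-3, and SLEAR shRNA-2 was above Control in both. The row 3 interval was 27.3 to 40.9% in Control. That of SLEAR shRNA-1 (49.0 to 63.8%) lay apart from it. Those of SLEAR shRNA-2 (34.8 to 49.4%) and SLEAR shRNA-3 (28.8 to 47.5%) overlapped it. For row 1 only SLEAR shRNA-3 (24.7 to 42.9%) lay apart from Control (6.69 to 15.8%). Rows 1 and 2 together, the early-ending ones, held 66.2% in Control and 43.5%, 58.1% and 62.2% with the SLEAR hairpins.

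The comparison of row shares was chosen after the IKZF1 values were seen. Among 404 genes of several rows with at least 50 reads in every library, 10 genes (2.48%), IKZF1 among them, had their leading Control row lower by at least 10 percentage points in all 3 SLEAR shRNA libraries. In 9 genes the leading row was higher by as much. The Control is a single library, and the sources used here do not give how reads were assigned to the rows of 1 gene.

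**Figure D2:**
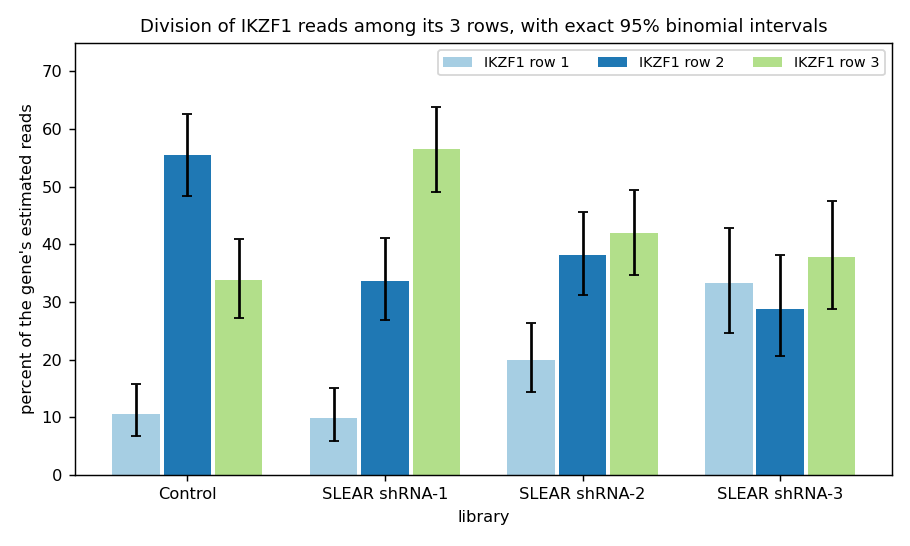
Percent of the estimated IKZF1 reads (vertical axis) in each of its 3 rows, for Control and the SLEAR shRNA libraries 1 to 3 (horizontal axis), with exact 95% binomial intervals as bars. Row 2 holds 55.6% in Control and between 28.8% and 38.2% in the SLEAR shRNA libraries.

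Ikaros relatives and NuRD subunits gave 18 tested rows, of which 0 passed. IKZF3, the relative called Aiolos and also near a lupus risk variant, was at 2.62 RPM in the Control library against 2.41, 0.930 and 0.208 RPM. RBBP7, a histone-binding subunit of NuRD, was at 59.8 RPM in the Control library against 79.2, 73.2 and 76.2 RPM. Its relative RBBP4 was at 17.3 RPM against 6.38, 12.4 and 1.66 RPM. HDAC2, the deacetylase, was at 4.05 RPM against 2.55, 0.399 and 0 RPM. As given above for STAT4, a 0 in SLEAR shRNA-3 is common at the level of HDAC2.

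ATG5 itself was not analysed here, but its machinery was. ATG5 is joined to ATG12, and with ATG16L1 the conjugate attaches LC3 proteins to the growing autophagosome. ATG12 was at 4.29 RPM in the Control library against 2.98, 4.39 and 9.76 RPM, and ATG16L1 at 3.82 RPM against 4.11, 2.66 and 13.7 RPM, both highest in SLEAR shRNA-3. Of 25 tested rows of autophagy genes 0 passed, with a median log2 difference of -0.18, against -0.11 over all tested rows. By library the median was 0.037, -0.10 and -0.36, so its sign differed in SLEAR shRNA-1. The smallest p belonged to PIK3R4, a subunit of the autophagy lipid kinase, at 194 RPM in the Control library against 125, 126 and 98.0 RPM. PIK3C3, the catalytic subunit, was at 4.65 RPM against 1.70, 1.59 and 0 RPM. At this level a 0 in SLEAR shRNA-3 is common, as given above for STAT4. GABARAPL1, of the LC3 family, was at 20.8 RPM against 13.2, 12.5 and 13.3 RPM.

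Set together, no member changed past the threshold. SLEAR shRNA was compared with Control by limma-trend on log2(RPM + 1), a scale on which changes at low values look smaller than they are, over 12350 rows at 1 RPM or more in at least 1 library. Of the 10 member rows tested, 0 passed at an adjusted p under 0.05, and 0 of all rows did (0%). At an unadjusted p under 0.05 there were 0 member rows and 331 of all rows (2.68%). At an adjusted p under 0.05 limma-voom on the estimated reads called 0 rows as well. The smallest unadjusted p of a member was 0.299, for STAT4. As given above, STAT4 entered the test only through the SLEAR shRNA libraries where it was high. The spread came from the 3 SLEAR shRNA libraries alone, and the same spread was taken for the Control.

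The direction of the members was mixed. PXK, TREX1 and rows 1 and 3 of IKZF1 were higher than Control in all 3 SLEAR shRNA libraries, which is 4 of 10 rows against 17.8% of all tested rows. Row 2 of IKZF1 was lower in all 3, which is 1 of 10 against 28.6%. Without SLEAR shRNA-1 the count of lower rows was 3 and without SLEAR shRNA-3 it was 2. Leaving out a library can only keep or raise such a count, and the matching shares over all tested rows were not computed. With the IKZF1 rows summed, 2 of 8 genes were higher and 0 lower. The median log2 difference was 0.24 over the member rows and -0.11 over all tested rows. By library the member median was 0.080, 0.011 and 0.10, and 3 of the 10 rows belong to 1 gene.

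SLEAR shRNA-3 was alone the highest or alone the lowest of the 4 libraries in 8 of 10 member rows, beside 78% of all tested rows. By counting error alone SLEAR shRNA-3 lay apart from Control in 4 member rows, those of JAZF1 and PXK and rows 1 and 2 of IKZF1. The matching share over all tested rows was not computed, so this count is not read as a trait of the members. In a fit without SLEAR shRNA-3 that kept the 4851 rows whose log2(RPM + 1) averaged 4 or more, 14.4% of rows passed. TYK2, TNIP1, PHRF1 and TREX1 were in that fit and 0 of the 4 passed. Their log2 differences were 0.041, -0.36, -0.058 and 0.035, with adjusted p of 0.924, 0.501, 0.908 and 0.951 by limma-trend. That fit had 1 residual degree of freedom in each row, and limma pooled the spread completely over rows.

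**Figure D3:**
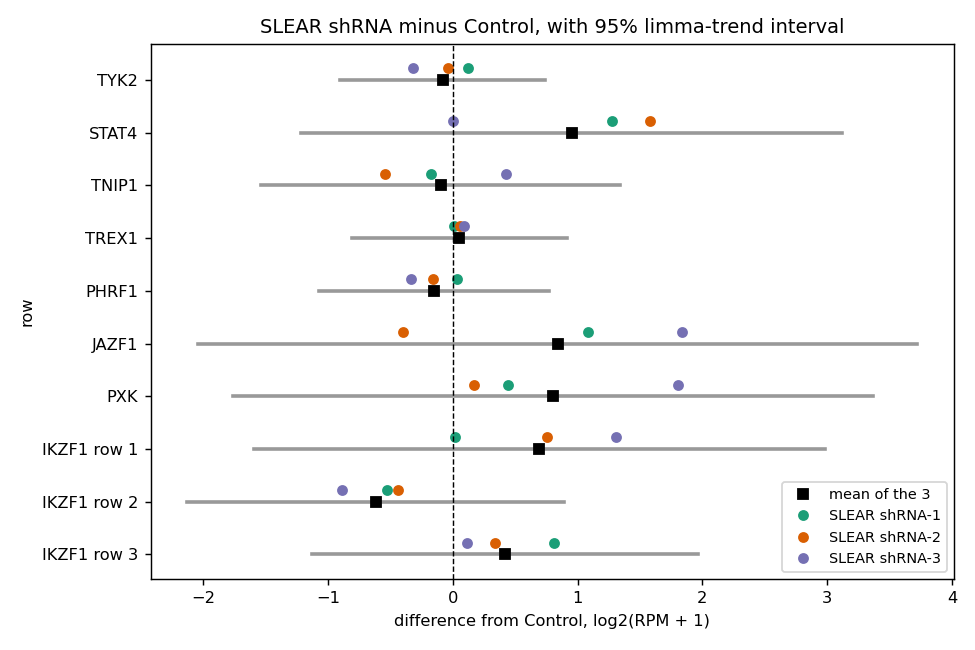
Difference from Control on the log2(RPM + 1) scale (horizontal axis) for the 10 tested member rows, as the mean of the 3 SLEAR shRNA libraries (black squares) with its 95% limma-trend interval (grey lines) and for each library (coloured points). Every interval spans 0, and the points of TREX1 lie closest together.

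**Figure D4:**
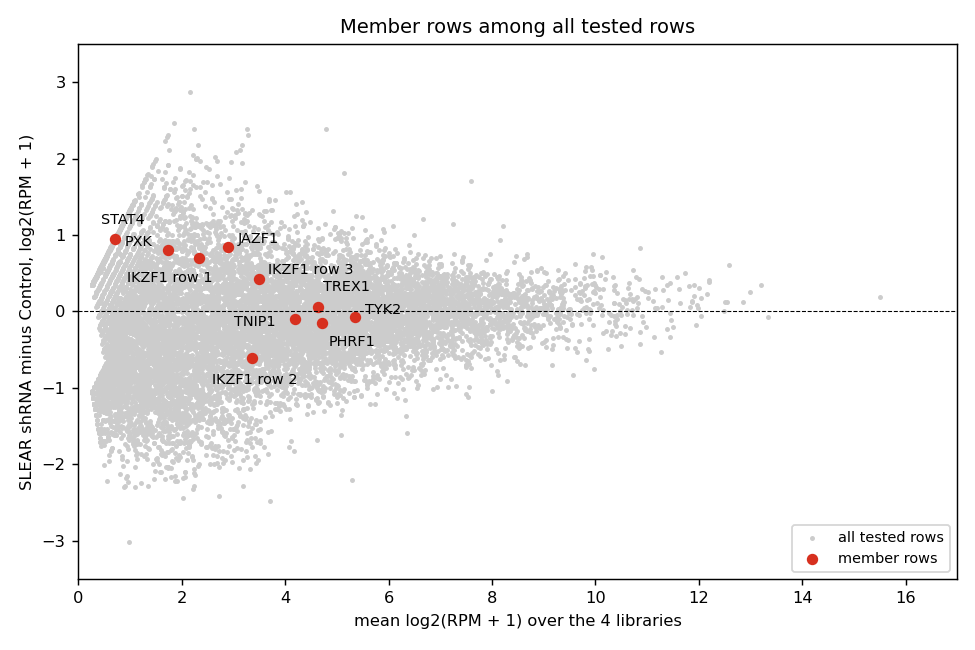
Mean log2 difference of SLEAR shRNA from Control (vertical axis) against the mean log2(RPM + 1) over the 4 libraries (horizontal axis), with the 12350 tested rows in grey and the 10 member rows in red. The member rows lie within the cloud of the other rows, and those with differences above 0.6 in size average under 4 on the horizontal axis.

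Other genes at lupus-associated loci, beyond the 10, gave 33 tested rows. Of these 0 passed. Across all 3 SLEAR shRNA libraries 4 lay above Control and 16 below it, beside the 17.8% and 28.6% of all tested rows given above, and the median log2 difference was -0.28 (by library -0.12, -0.25 and -0.42). The smallest p belonged to CSK, the kinase that restrains LCK, with a log2 difference of 0.70 ± 0.20 (SE). CD226, a costimulatory receptor, followed at 2.15 RPM in the Control library against 0, 0.665 and 0 RPM, and then a row of AFF1, a transcription elongation factor, at 25.6 RPM against 15.0, 8.15 and 12.2 RPM. CD226 was at 1 RPM or more in Control alone, so it entered the test only through the library where it was high. In the fit without SLEAR shRNA-3 among the 4851 rows, CSK was higher and UHRF1BP1 and TNPO3 were lower, out of 14 rows of this list, beside the 14.4% of all rows of that fit. TNPO3, a nuclear import receptor, was at 128 RPM in Control, lower in SLEAR shRNA-1 (64.7 RPM) and SLEAR shRNA-2 (71.5 RPM), but at 124 RPM in SLEAR shRNA-3. From the other lists, CHUK passed that fit as 1 of 13 rows, PIK3R4 as 1 of 10 and RUVBL2, a NuA4 subunit, as 1 of 10, and the remaining 3 lists had 0. RUVBL2 was at 52.4 RPM in Control, higher in SLEAR shRNA-1 (79.6 RPM) and SLEAR shRNA-2 (85.7 RPM), but at 39.5 RPM in SLEAR shRNA-3.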

How the data were processed

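The authors deposited 1 table of RPM values for 4 libraries of the Jurkat line. The submitters' processing notes name hg19, FastQC, Bowtie2 and SAMtools without versions. The sources used here do not give how reads were assigned to rows or which rows were filtered.

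From the deposited RPM, depth was estimated by the step between low values: 96.4 to 96.8% of values above 0 were whole multiples within 0.05 reads, but some lay below 1 read, so no count model was the main test, and limma-voom on the estimated reads was an alternative. Merging rows of identical values that averaged 1 RPM or more left 16151. Limma-trend (limma 3.58.1, R 4.3.3) used log2(RPM + 1) with Benjamini-Hochberg adjustment over 12350 rows, and was tested on simulated data. Intervals came from scipy 1.17.1. Promoter sequences are from RefSeq (GRCh38.p14), and transcript models from GENCODE 29, with no coordinates joined to the hg19 table.

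Members and lists were chosen with earlier results of these data known. Named besides the members were 9 direct partners, of which SAMHD1 is not analysed here, and the 3 tested rows of each list with the smallest p. Some of these results are not reported here. TNPO3, UHRF1BP1 and RUVBL2 were named after their values were seen. Alternatives were other pseudocounts, filters, size factors, limma-voom, array weights, summed rows and leaving out each SLEAR shRNA library.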

Additional observations from a re-analysis of the deposited data

How the results depend on the processing

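Of the 12350 rows, 0 passed. With no filter on low values 377 of 16151 rows passed, and without SLEAR shRNA-3 among the 4851 rows averaging 4 or more on the log2 scale 697 passed; in the other alternatives, leaving out each SLEAR shRNA library included, 0 passed. The count of members that passed was 0 in every alternative run. Member rows higher in all SLEAR shRNA libraries were 4, between 4 and 5 when a library was left out, and 2 with rows summed. Those lower were 1, between 1 and 3 when a library was left out, and 0 with rows summed. A library left out can only keep or raise these counts. Among the log2 differences of single member rows, 101 kept their direction and 4 turned. TYK2 turned to 0.0079 with array weights and to 0.041 without SLEAR shRNA-3, with or without the minimum of 4, and TNIP1 to 0.13 without SLEAR shRNA-2. Leaving out each library, TYK2 ranged from -0.18 to 0.041 and TNIP1 from -0.36 to 0.13; the cause was not tested. Low rows moved most with the pseudocount: with 5 RPM added PXK was 0.38 and row 1 of IKZF1 0.39, against 0.81 and 0.70. JAZF1, at 0.84, was 0.19 with array weights and 1.46 without SLEAR shRNA-2. No paired analysis was possible because Control has 1 library and the groups share fewer than 2 replicate numbers. Depth limits TNFAIP3, STAT4 and PXK most, at 0 to 32 reads a library.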
